A study of Mus musculus with 2207 samples.

Results

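Cortical neurons of mice labelled *Ehmt1*Δ/+ were compared with neurons of mice with both *Ehmt1* copies, where both groups also carried an induced *Ehmt1* transgene. The neurons were the 555 nuclei labelled Neuron in 2 pools of a 384-well plate experiment, of 2207 nuclei in all 6 pools of the series. The first pool, called Δ/+ iTg here, held 280 neurons of *Ehmt1*Δ/+ mice with *Ehmt1* iTg and CamKII-CreER, and the second, called iTg, held 275 neurons of *Ehmt1*+/+ mice with the same *Ehmt1* iTg and CamKII-CreER. *Ehmt1* iTg is a FLAG-tagged *Ehmt1* under the CAG promoter at *Rosa26* that Cre switches on, and CamKII-CreER is a Cre, active after tamoxifen, of postnatal forebrain neurons, so glia of the same mice do not express it. Every mouse, of the 96-well plates too, was C57BL/6 by its labels (C57BL6/J in the study's methods), 14 weeks of age, and had received 100 mg/kg tamoxifen 2 times, at 3 weeks of age by the labels and 1 week apart by the methods. The other 384-well pools, Δ/+ with 306 neurons and WT with 285, differ between the sources, since their labels give the *Ehmt1* iTg allele and no CamKII-CreER, while the study describes its WT and Δ/+ mice of this experiment as carrying CamKII-CreER. By either account the transgene is not induced in them, and they are called pools without induced transgene here. Whether the transgene pools differ from them by the Cre or by the allele cannot be told apart. A 96-well experiment added a Δ/+ pool of 265 neurons and a WT pool of 253, whose labels name neither transgene. Each pool came from 3 mice, the labels do not say which mouse a nucleus is from, and each genotype therefore had 1 sample, so that the comparison of Δ/+ iTg with iTg has no replicate of its own and no test of its own. The iTg and Δ/+ iTg pools are shared with neither of the other comparisons of Δ/+ with WT.

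*Ehmt1* encodes GLP, which together with its partner G9a, encoded by *Ehmt2*, places mono- and dimethyl groups on lysine 9 of histone H3, a mark of silent euchromatin. Loss of 1 *EHMT1* copy in people causes Kleefstra syndrome, with intellectual disability and autistic features. The comparison asks which of the differences between Δ/+ and normal neurons are still seen when neurons of both genotypes have been given GLP after birth.

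The libraries were made by RamDA-seq, which reads total RNA along the whole transcript from single nuclei, unspliced and non-polyadenylated RNA included. Levels are RPKM, reads scaled by gene length and library size, averaged over the neurons of a pool. Log2 ratios are those of mean RPKM + 0.1, which understates the ratio of low genes, and a gene was measured if its value was above 0 in at least 10% of the neurons of either pool, which 24336 genes were. A gene was counted as higher or lower at a ratio of 2-fold. In a pool mean, fewer cells of a type and less RNA per cell cannot be told apart.

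The Δ/+ iTg pool stood apart from the 3 other 384-well pools in the make-up of its RNA, and this touches every value below. Against iTg, 2564 of the 24336 genes were at least 2-fold higher in Δ/+ iTg, or 10.5%, and 133, or 0.547%, were at least 2-fold lower. The median log2 ratio over all genes was 0.22, where the medians of Δ/+ against WT were -0.03 in the 384-well pair and -0.02 in the 96-well pair. Among 14069 protein-coding genes, 316 (2.25%) were higher and 52 (0.37%) lower, with a median of 0.12. After the median of all genes was subtracted, 1537 genes were higher and 335 lower, and among protein-coding genes 113 were higher and 130 lower.

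The genes that shifted most were not protein-coding ones. Of 1868 transcripts of the class TEC, regions with evidence of transcription that still await experimental proof, 855 were higher and 1 was lower, with a median log2 ratio of 0.95. Of 233 small nuclear RNAs, 112 were higher and 7 lower, and of 236 transcripts inside the introns of other genes 96 were higher and 0 lower. TEC transcripts took a median of 2.91% of the reads of a Δ/+ iTg neuron (percentiles 10 to 90, 2.00 to 3.47%) and 1.52% of an iTg neuron (0.817 to 1.97%). The other 384-well pools were at 1.68% in WT and 1.69% in Δ/+, and the 96-well pools at 4.02% and 4.42%. The Δ/+ iTg pool thus lay between the plate formats. Across genes, the log2 ratio of Δ/+ iTg to iTg had a correlation of 0.69 with the log2 ratio of WT in 96-well to WT in 384-well plates (24336 genes, which are not replicates and share base composition and length in both ratios).

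The same shift was present in glia, which CamKII-CreER does not target. In oligodendrocytes, 71 of iTg and 67 of Δ/+ iTg, TEC transcripts took 0.832% and 1.86% of the reads, and their median log2 ratio was 1.47. In microglia, 20 and 23 nuclei, they took 0.746% and 1.70%, and the median was 1.31. The labels of the Δ/+ iTg, iTg and Δ/+ 384-well pools carry the same number after the pool name, and those of WT another. It cannot name a single plate, since the 555 neurons of Δ/+ iTg and iTg exceed 384 wells. Which plates held each pool is not given, so plate and genotype cannot be told apart. A median neuron held 397880 reads and 13140 genes above 0 in iTg, and 323273 reads and 14713 genes in Δ/+ iTg, the highest and the lowest read medians of the 6 pools. With 1 pool each, this difference between pools and the genotype cannot be told apart. Ratios relative to the median of all genes are therefore given for gene groups.

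**Figure D1:**
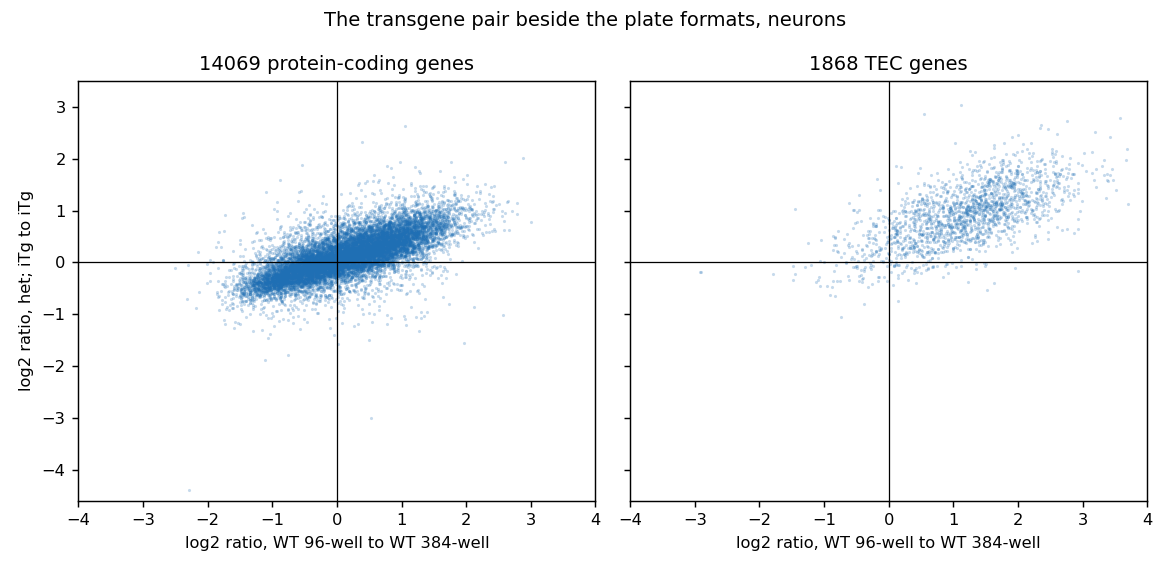
Log2 ratio of mean RPKM + 0.1 in neurons, Δ/+ iTg (het; iTg) to iTg on the vertical axis, against the log2 ratio of WT in 96-well to WT in 384-well plates on the horizontal axis. Each point is 1 gene, with 14069 protein-coding genes on the left and 1868 TEC transcripts on the right. Points run from the lower left to the upper right, and most TEC transcripts lie above 0 on both axes.

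*Ehmt1* RNA itself (chromosome 2 of mm10, 24789928 to 24919614) was higher in every pool with a Δ/+ label, with and without the induced transgene. It was at 20.7 RPKM in iTg and 33.9 RPKM in Δ/+ iTg, a log2 ratio of 0.71. Without induced transgene it was at 19.5 RPKM in WT and 31.7 RPKM in Δ/+ in the 384-well plates, and at 18.7 and 31.2 RPKM in the 96-well plates, ratios of 0.69 and 0.73. The neurons of Δ/+ iTg were shifted as a whole, with a median nucleus of 33.2 RPKM (percentiles 10 to 90, 22.1 to 45.8) against 19 RPKM in iTg (9.94 to 31.4). The limma fit over all 6 pools gave the transgene pair a standard error of 0.14 and an adjusted p of 0.077. These values are totals per gene, and read neither the deleted stretch nor the FLAG tag alone. They are opposite to the direction that the loss of 1 copy would give, but as counts over the whole gene they do not check the labels, and every direction below is that of the label Δ/+. The level in iTg was close to that in the 384-well WT pool, so that the induced transgene was not visible in this measure either. *Ehmt2* was at 66.8 RPKM in iTg and 47.0 RPKM in Δ/+ iTg (log2 ratio -0.51), and at 71.4 and 66.2 RPKM in the WT and Δ/+ 384-well pools.

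To see what is left of the Δ/+ difference, genes were chosen in the pairs without induced transgene and read in the transgene pair, which shares no pool with them. Of 23490 genes measured in all 3 pairs, 45 were at least 2-fold apart in the same direction in both pairs without induced transgene, 19 of them protein-coding. Of the 8 protein-coding genes that were higher in both, 0 were 2-fold higher in Δ/+ iTg than in iTg, where 2.15% of 13883 protein-coding genes were. Their median log2 ratio was -0.17, against 0.12 for all protein-coding genes, with 3 of the 8 above 0 and 5 below. Of the 11 that were lower in both, 4 were 2-fold lower in the transgene pair too, or 36.4%, where 0.339% of protein-coding genes were. These 4 were *Capn11*, *Zfp951*, *Sst* and *4930447C04Rik*. Over all gene types, 2 of 14 higher genes (background 9.71%) and 10 of 31 lower genes (background 0.434%) passed 2-fold in the same direction. The 10 include the unprocessed pseudogenes *Gm19786*, *Gm9255* and *Gm40853* on chromosome 12 and *Gm40466* and *Gm20778* on chromosome 8. The members of each group lie near one another and may not be separate differences. Whether they share reads was not tested.

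A choice made in 1 pair alone gave a larger number of genes and allowed both other pairs to be read. Of 36 protein-coding genes 2-fold higher in the 96-well Δ/+ pool, 8 were 2-fold higher in the 384-well pair without induced transgene (background 0.259%), with a median of 0.55, and 2 were in the transgene pair (background 2.15%), with a median of -0.01. Of 171 protein-coding genes 2-fold lower in the 96-well Δ/+ pool, 11 were 2-fold lower in the 384-well pair (background 0.303%), with a median of -0.32, and 14 were in the transgene pair (background 0.339%), with a median of 0.02. Over all gene types the 67 higher genes gave 14 in the 384-well pair (20.9%, background 0.336%) and 11 in the transgene pair (16.4%, background 9.71%), and the 315 lower genes gave 31 (9.84%, background 0.605%) and 28 (8.89%, background 0.434%). The medians of the 67 higher genes were 0.43 and 0.21 and those of the 315 lower genes -0.31 and -0.13. All genes had medians of -0.03 and 0.21, and all protein-coding genes -0.02 and 0.12. The 67 genes higher in the 96-well Δ/+ pool thus lay above the median gene in the 384-well pair and at it in the transgene pair. The 315 lower genes lay below the median gene in both.

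**Figure D2:**
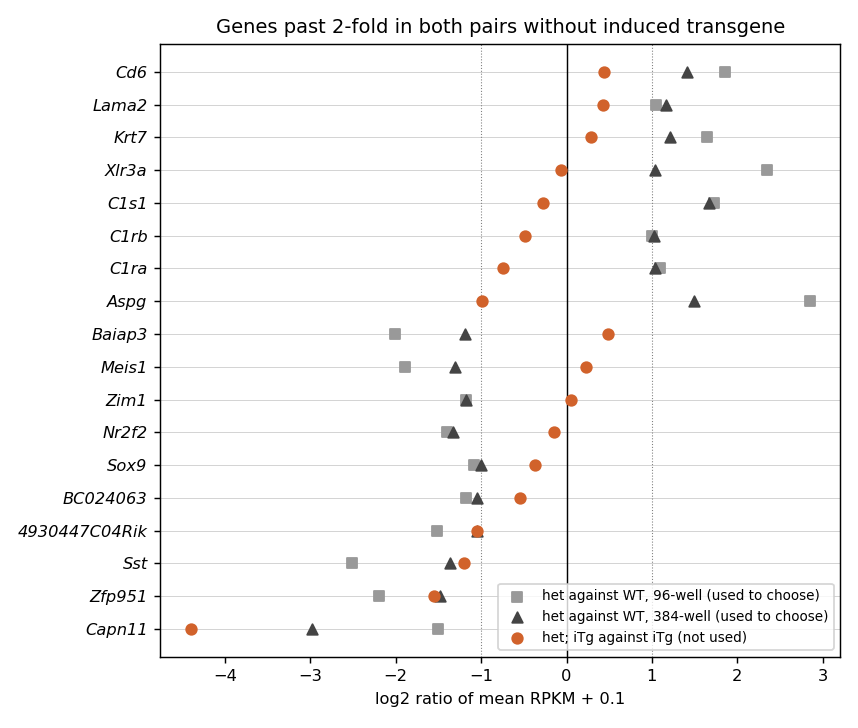
Log2 ratios of mean RPKM + 0.1 in neurons for 18 of the 19 protein-coding genes at least 2-fold apart in the same direction in both pairs without induced transgene (squares, 96-well; triangles, 384-well), with the ratio of Δ/+ iTg (het; iTg) to iTg as circles. Dotted lines mark 2-fold. All 8 genes of the higher set have their circle between the dotted lines, while 4 of the 10 lower genes shown have it below -1.

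Of the C1r and C1s proteases, which start the classical complement cascade once C1q has bound, *C1s1*, *C1ra* and *C1rb* were higher in Δ/+ without induced transgene and lower in the transgene pair. The fourth, *C1s2*, had another pattern, at 0.20 RPKM in iTg and 0.39 RPKM in Δ/+ iTg, with log2 ratios of 0.72, 0.33 and 0.47 in the transgene, 384-well and 96-well pairs. *C1s1* (chromosome 6, 124530345 to 124542359) was at 0.56, 2.07, 0.69 and 2.40 RPKM in WT and Δ/+ of the 96-well and WT and Δ/+ of the 384-well plates, and at 0.65 RPKM in iTg and 0.52 RPKM in Δ/+ iTg. *C1ra* (chromosome 6, 124512405 to 124523443) was at 0.90, 2.03, 1.10 and 2.36 RPKM in the same order, and at 1.70 RPKM in iTg and 0.98 RPKM in Δ/+ iTg. In both genes the Δ/+ pools without induced transgene lay above each of the 4 other pools. The log2 ratios of the transgene pair were -0.28 for *C1s1*, -0.74 for *C1ra* and -0.49 for *C1rb*, its neighbour and close copy, with which reads can be shared. The share of neurons with *C1s1* above 0 was 12.1% (exact 95% interval 8.56 to 16.5) in Δ/+ iTg and 14.2% (10.3 to 18.9) in iTg, where it was 21.9% (17.4 to 26.9) in Δ/+ and 13.3% (9.61 to 17.8) in WT of the 384-well plates. *C1ra* was above 0 in 15.7% of Δ/+ iTg and 13.5% of iTg neurons, so its share and its mean do not have the same direction. In iTg and Δ/+ iTg, neither *C1ra* nor *C1rb* was above 0 in any neuron with more *Gad1* than *Slc17a7*, and the means of *C1s1* there were 0.00 and 0.01 RPKM. These intervals cover counting error only.

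*Cd6*, *Lama2* and *Krt7* of the higher set had the same sign in the transgene pair at a smaller ratio. *Cd6*, a receptor of T cells, was at 1.48 RPKM in iTg and 2.05 RPKM in Δ/+ iTg, a log2 ratio of 0.44 beside 1.41 and 1.85 in the 384-well and 96-well pairs. It was above 0 in 13.1% (9.34 to 17.7) of iTg and 15% (11 to 19.7) of Δ/+ iTg neurons, and in 11.9% and 27.5% of WT and Δ/+ neurons of the 384-well plates. *Lama2*, a laminin chain, had log2 ratios of 0.43, 1.16 and 1.05 in the transgene, 384-well and 96-well pairs, and *Krt7*, a keratin, 0.29, 1.21 and 1.65. Relative to the median of all genes, the transgene ratios of *Cd6*, *Lama2* and *Krt7* were 0.22, 0.21 and 0.07, so that *Krt7* was near the median gene. *Aspg*, an asparaginase, was at 2.87 RPKM in iTg and 1.39 RPKM in Δ/+ iTg, a log2 ratio of -0.99 beside 1.49 and 2.85 in the 384-well and 96-well pairs.

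The X-linked *Xlr3* genes, a lymphocyte-regulated family with an imprinted member, had no higher level in Δ/+ iTg. *Xlr3a*, *Xlr3b* and *Xlr3c* are near copies whose reads can be split. *Xlr3a* (chromosome X, 73086293 to 73097095) was at 0.45 RPKM in iTg and 0.43 RPKM in Δ/+ iTg, at 0.28 and 0.67 RPKM in WT and Δ/+ of the 384-well plates, and at 0.38 and 2.37 RPKM in the 96-well plates. The log2 ratios of the transgene pair were -0.06, -0.25 and -0.39 for *Xlr3a*, *Xlr3b* and *Xlr3c*, those of the 384-well pair 1.03, 0.73 and 0.61. *Apol7b*, an apolipoprotein L family member, was above 0 in under 10% of the neurons of both transgene pools, with means of 0.04 and 0.20 RPKM, beside 0.02 and 0.60 RPKM in the 384-well and 0.05 and 0.81 RPKM in the 96-well plates.

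Of the genes lower in Δ/+ without induced transgene, 1 set was lower in the transgene pair too. *Capn11*, a calpain protease on chromosome 17 (45630204 to 45659325), had the lowest ratio among the named genes. It was at 7.82 RPKM in iTg and 0.28 RPKM in Δ/+ iTg, at 4.91 and 0.54 RPKM in WT and Δ/+ of the 384-well plates, and at 0.92 and 0.26 RPKM in the 96-well plates. It was above 0 in 36.7% (31.0 to 42.7) of iTg and 6.43% (3.85 to 9.97) of Δ/+ iTg neurons. The log2 ratio of -4.39 of all neurons was -4.34 in neurons with more *Slc17a7* than *Gad1* and -4.66 in those with more *Gad1*, and in oligodendrocytes *Capn11* was at 4.02 RPKM in iTg and 0.26 RPKM in Δ/+ iTg. The limma fit gave it a standard error of 0.57 and an adjusted p of 0.059. *Zfp951*, a zinc finger gene on chromosome 5 (104813169 to 104860070), was at 0.74 and 0.19 RPKM in the transgene pair, with log2 ratios of -1.55, -1.48 and -2.19 in the transgene, 384-well and 96-well pairs.

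*Sst*, the peptide somatostatin of a class of interneurons, was at 101 RPKM in iTg and 44.2 RPKM in Δ/+ iTg, at 88.6 and 34.4 RPKM in WT and Δ/+ of the 384-well plates, and at 111 and 19.4 RPKM in the 96-well plates. Each Δ/+ pool lay below each pool without that label. In neurons with more *Gad1* than *Slc17a7* the mean was 521 RPKM in iTg and 236 RPKM in Δ/+ iTg, while in those with more *Slc17a7* it was 1.30 and 2.51 RPKM, so that the direction is that of the *Gad1* neurons. *Sst* was above 0 in 26 of 53 such *Gad1* neurons of iTg (49.1%, 35.1 to 63.2) and in 13 of 50 of Δ/+ iTg (26%, 14.6 to 40.3). Over all neurons the share was 18.2% in both pools. In *Gad1* neurons of WT and Δ/+ it was 42.5% and 42.3% in the 384-well and 50% and 44.2% in the 96-well plates. A single nucleus held 20.8% of the *Sst* sum of all neurons in iTg and 34.7% in Δ/+ iTg. *Npy*, another interneuron peptide, was at 27.1 and 11.1 RPKM in the transgene pair, with log2 ratios of -1.28, -0.66 and -0.95, and 1 nucleus held 51.5% of its sum in Δ/+ iTg. *Npy* was above 0 in 10.5% of iTg and 11.8% of Δ/+ iTg neurons.

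Other genes with high levels in *Gad1* neurons were 2-fold lower in Δ/+ in both pairs without induced transgene. Over all neurons they were under 2-fold apart in the transgene pair. *Nr2f2*, a transcription factor of interneurons from the caudal ganglionic eminence, was at 1.29 RPKM in iTg and 1.16 RPKM in Δ/+ iTg (log2 ratio -0.15), beside 2.10 and 0.77 RPKM in the 384-well and 1.69 and 0.58 RPKM in the 96-well pair. *Meis1*, a homeobox factor, had ratios of 0.23, -1.30 and -1.89 in the transgene, 384-well and 96-well pairs, and *Baiap3*, a factor of dense core vesicle release, 0.48, -1.18 and -2.01. *Zim1*, an imprinted zinc finger gene, had 0.06, -1.17 and -1.17. In neurons with more *Gad1* than *Slc17a7*, the transgene ratios of *Nr2f2*, *Meis1*, *Baiap3* and *Zim1* were 0.01, 0.36, 1.22 and 0.69. In those with more *Slc17a7* they were -0.13, 0.56, -0.01 and -0.35. *Baiap3* was thus over 2-fold higher in the *Gad1* neurons of Δ/+ iTg. In the iTg pool the levels of *Meis1* and *Baiap3* were 0.44 and 11.4 RPKM, beside 0.80 and 24.7 RPKM in the 384-well WT pool, so the iTg pool was itself below WT. Neurons with more *Gad1* than *Slc17a7* made up 19.3% of iTg (53) and 17.9% of Δ/+ iTg (50), but 25.6% of WT and 17% of Δ/+ in the 384-well plates. The part of this difference in neuron make-up in these gene ratios was not tested.

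**Figure D3:**
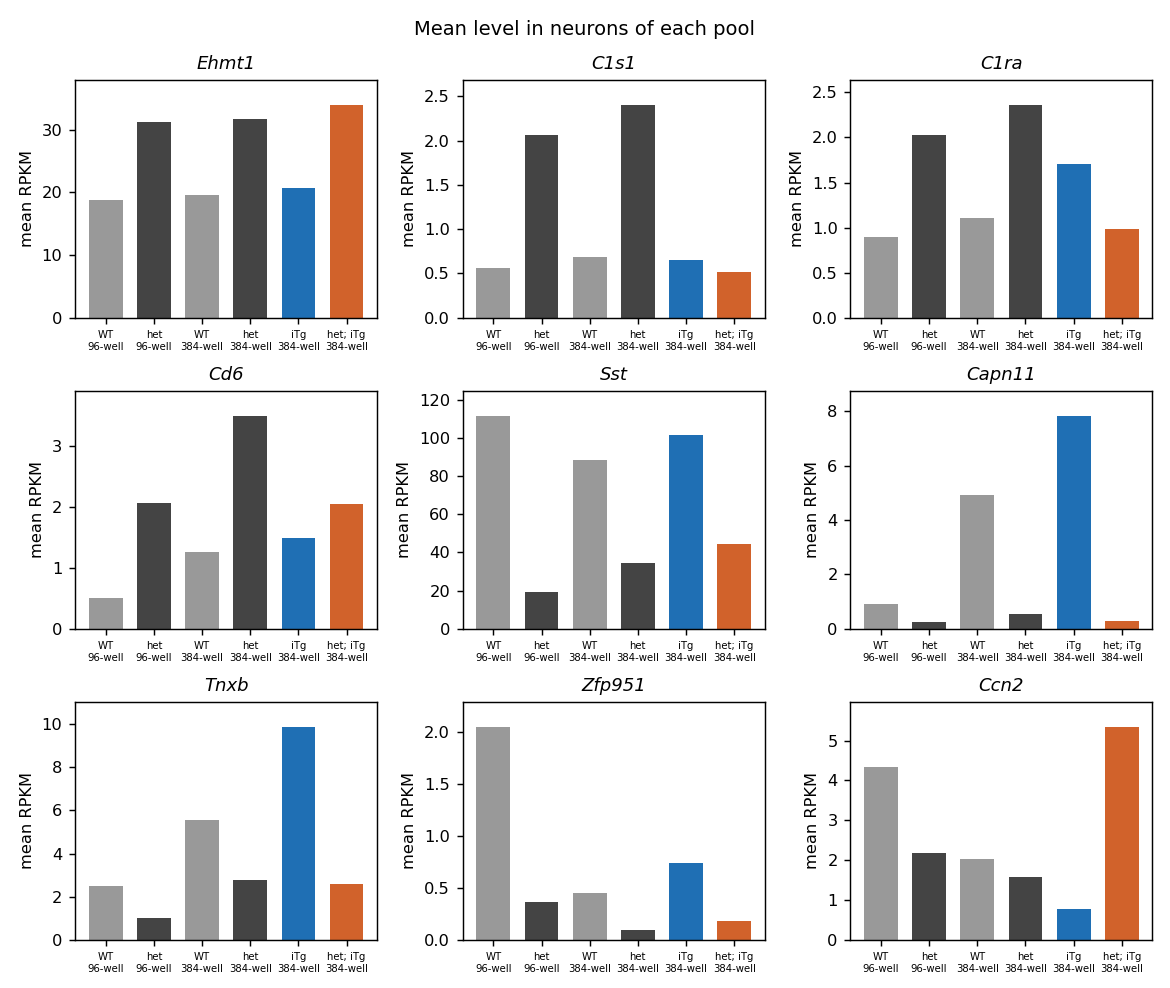
Mean RPKM in the neurons of each pool for 9 genes, with 1 bar per pool and no error, since each genotype and plate format had 1 pool. Bars run from WT and Δ/+ (het) in 96-well plates over WT and Δ/+ in 384-well plates to iTg in blue and Δ/+ iTg (het; iTg) in orange. *C1s1* and *C1ra* are highest in the Δ/+ pools without induced transgene, while *Sst*, *Capn11* and *Zfp951* are low in each Δ/+ pool.

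Among 13883 protein-coding genes, 61.5%, 45.8% and 40.4% had ratios above 0 in the transgene, 384-well and 96-well pairs. Across them, the transgene ratio had correlations of 0.08 and 0.09 with the 384-well and 96-well ratios, which had 0.31 with each other. In all 3 pairs, 2176 of these genes had a higher and 2233 a lower value in Δ/+, and a shared sign alone does not mark a Δ/+ difference. Ranked by the smallest of their 3 ratios, the highest were *Ehmt1*, *S100a7a* (0.27 RPKM in iTg and 0.74 RPKM in Δ/+ iTg), *C3ar1*, the receptor of a complement fragment (0.23 and 0.50 RPKM), *Tfpi*, an inhibitor of tissue factor (0.43 and 1.23 RPKM), *Ccn4* (1.03 and 2.76 RPKM) and *Serpinb8* (2.33 and 3.74 RPKM). The log2 ratios of *C3ar1* were 0.88, 0.84 and 0.68 in the transgene, 384-well and 96-well pairs, and those of *Serpinb8* 0.66, 0.84 and 1.0. On the lower side were *Capn11*, *Zfp951*, *Sst*, *Tnxb*, *Magel2*, *Npy*, *Mycl*, *Hist1h4n*, *Lama5* and *Lbh*. *Tnxb*, tenascin-X (chromosome 17, 34670535 to 34719815), was at 9.84 RPKM in iTg and 2.59 RPKM in Δ/+ iTg, and at 5.58 and 2.77 RPKM in the 384-well pair, although it was above 0 in 16% of iTg and 17.1% of Δ/+ iTg neurons. *Magel2*, an imprinted gene of the Prader-Willi region, was at 2.46 and 0.96 RPKM, with ratios of -1.27, -1.10 and -0.64. *Lama5*, a laminin chain, had -0.72, -0.67 and -0.73, and *Mycl*, a Myc family factor, -0.76, -0.70 and -0.87.

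Several of the largest ratios of the transgene pair had another direction in the other pairs, and some rested on single nuclei. *Ccn2* (chromosome 10, 24595442 to 24598683), a matricellular protein of deep-layer neurons, was highest of the named genes, at 0.78 RPKM in iTg and 5.33 RPKM in Δ/+ iTg, a log2 ratio of 2.63 beside -0.36 and -0.97 in the 384-well and 96-well pairs. A single nucleus held 39.7% of the sum of *Ccn2* in iTg and 27.2% in Δ/+ iTg. *Frem3* was at 0.03 and 0.56 RPKM, and 1 nucleus held 65.5% of its sum in Δ/+ iTg. *Fn1*, fibronectin, was at 1.84 and 0.14 RPKM, and 1 nucleus held 53.2% of its sum in iTg. *Ttn*, titin, was at 0.26 and 1.07 RPKM, with ratios of 1.69, 1.57 and 0.56, and was above 0 in 52.7% of iTg and 54.3% of Δ/+ iTg neurons. The other genes with the highest ratios were *Fcrlb*, *Clrn1*, *Slc5a12*, *Slc10a1*, *Sla*, *Stap1* and *Vamp7*, with log2 ratios from 1.69 to 1.88, and those with the lowest *Otop2*, *Adamts1*, *Baiap2l2*, *Pim1*, *Foxj1* and *Map4k1*, from -1.79 to -1.33.

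A test was possible only over pools, with limma on the log2 means of 23490 genes. In the fits with separate Δ/+ terms the transgene pair adds nothing to the estimate of the spread. That spread comes from the pairs without induced transgene, and the transgene pools are assumed to vary like them. With the spread pooled over the plate formats, the Δ/+ effect of the transgene pair passed an adjusted p of 0.05 in 0 genes (background 0%), with a smallest adjusted p of 0.0594 and an unadjusted p under 0.05 in 6702 higher and 1142 lower genes. With a pseudocount of 1 in place of 0.1, 2117 higher and 114 lower genes passed, so the count depends on this setting. The difference between the Δ/+ effect with and without induced transgene passed in 0 genes (0%), with a smallest adjusted p of 0.112 and 5896 higher and 636 lower genes at an unadjusted p under 0.05. It was 0.112 for *C1s1*, *C1ra*, *C1rb*, *Nr2f2* and *Meis1*, 0.121 for *Cd6* and 0.988 for *Ehmt1*. The mean Δ/+ effect over all 3 pairs passed in 0 genes (0%), with a smallest adjusted p of 0.376 and 614 higher and 561 lower genes at an unadjusted p under 0.05. The first and second of these fits have 1 residual degree of freedom and found 0 of 50 genes simulated at log2 changes of 1, 2, 3 and 4 each, so that their counts of 0 say nothing about changes of that size. The fit over 3 pairs found 30, 33, 37 and 49 of 50. The simulated noise came only from the difference between the pairs without induced transgene, and the change was the same in each Δ/+ pool. The measured ratios had an SD of 0.56 in the transgene pair, beside 0.31 and 0.36 in the 384-well and 96-well pairs. These finds therefore do not give the power for the measured data. For *Sst*, *Zfp951*, *Capn11* and *Npy* the mean effects of the fit over 3 pairs were -1.69 ± 0.29, -1.74 ± 0.19, -2.96 ± 0.55 and -0.96 ± 0.17 (SE), each with an adjusted p of 0.793.

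The ratios were read again after the straight-line relation across genes to the WT ratio of the plate formats had been removed, a step chosen after the data had been seen, which brings both WT pools into the value. *C1s1* and *C1ra* were then at -0.31 and -0.77, *Cd6* at 0.81, *Sst* at -1.49, *Capn11* at -3.52, *Zfp951* at -2.58 and *Ehmt1* at 0.59, each with the sign it had before. *Snap25*, at 0.21, and *Cbx5*, at 0.15 from 1.09, came close to 0, and *Meis1* turned from 0.23 to -0.13. Over all genes, 456 were 2-fold higher and 226 lower on this scale.

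Lists of genes by function were read against the median shift of 0.22 over all gene types, where protein-coding genes alone had a median of 0.12. The 15 mitochondrially encoded genes had the lowest median, with a log2 ratio of -1.02 (-1.24 relative to all genes) and 8 members at least 2-fold lower in Δ/+ iTg, where 0.547% of all genes were. *mt-Cytb*, cytochrome b, was at 38.7 and 18.1 RPKM. The same list had a median of 1.13 in the 384-well pair and -1.82 in the 96-well pair, so it had no single direction with the Δ/+ label. Mitochondrial reads in nuclei come from outside the nucleus, and took a median of 0.127% of the reads in iTg and 0.0845% in Δ/+ iTg.

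The medians of both interneuron lists lay below 0 in all 3 pairs, while single members differed in direction. Of 11 measured interneuron peptides and subtype genes, 3 (*Npy*, *Sst* and *Nos1*) were 2-fold lower and 0 higher. Among all genes 0.547% were lower and 10.5% higher, and among protein-coding genes 0.37% and 2.25%. The list median was -0.36 (-0.58 relative to all genes) beside -0.66 and -0.92 in the 384-well and 96-well pairs. *Cck*, *Tac1* and *Kit* lay above the median gene, with log2 ratios of 0.28, 0.51 and 0.26. Of the 9 members above 0 in too few neurons to be counted as measured, *Vip*, *Crh* and *Tac2* were higher, with *Vip* at 3.96 RPKM in iTg and 12.5 RPKM in Δ/+ iTg and log2 ratios of 1.63, 1.15 and 1.06. *Nos1*, neuronal nitric oxide synthase, was at 4.75 RPKM in iTg and 2.20 RPKM in Δ/+ iTg, with ratios of -1.08, -0.07 and -0.77. Of 19 GABAergic class genes 0 passed 2-fold, with a median of -0.28 (-0.50) beside -0.67 and -0.52. *Gad1*, the main enzyme of GABA synthesis, was at 11.3 and 11 RPKM in iTg and Δ/+ iTg but at 14.5 and 9.88 RPKM in WT and Δ/+ of the 384-well plates.

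Genes of excitatory neurons and synapses differed in direction by list. The 12 measured layer V/VI genes had a median of 0.46 (0.23 relative to all genes) and the 11 GABA-A receptor subunits one of 0.58 (0.36), with 10 of the 11 above the median gene. The 17 glutamate receptor and spine scaffold genes had a median of -0.31 (-0.53) and 24 activity-regulated genes one of -0.15 (-0.37). *Grin1*, the obligatory NMDA receptor subunit, was at 125 and 97.4 RPKM, *Shank1* at 156 and 117 RPKM and *Arc* at 85.1 and 88.3 RPKM. No member of these 4 lists passed 2-fold. The 12 excitatory class genes had a median of 0.01 (-0.21), the 8 layer II/III genes 0.05 (-0.17) and the 7 layer IV/Va genes -0.28 (-0.50), while the 18 potassium and sodium channel genes were at 0.13 (-0.09). *Snap25*, a SNARE protein of vesicle release, was at 66.3 RPKM in iTg and 118 RPKM in Δ/+ iTg (log2 ratio 0.83), with 63.0 and 64.3 RPKM in the 384-well and 130 and 131 RPKM in the 96-well pair, so that it too lay between the plate formats. *Slc17a7*, the vesicular glutamate transporter of cortical excitatory neurons, was at 112 and 104 RPKM.

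The medians of the immune gene lists lay below the median of all gene types, by 0.05 to 0.36. Against the protein-coding median of 0.12 they had no common direction. The inflammasome and MHC class I lists, both at 0.17, lay above it and the lymphoid list, at 0.11, near it. The complement and interferon lists, at -0.07 and -0.14, lay below it. Of 20 complement genes 10 were measured and 0 passed 2-fold, with a median of -0.07 (-0.29 relative to all genes) beside 0.19 and 0.25 in the 384-well and 96-well pairs. Of 18 inflammasome and interleukin-1 genes 6 were measured, with a median of 0.17 (-0.05). Of these 1, *Pycard*, the adaptor ASC, was 2-fold higher at 1.43 and 3.14 RPKM, where 10.5% of all and 2.25% of protein-coding genes were. Of 20 lymphoid genes 8 were measured, with a median of 0.11 (-0.11), and *Cd5*, a T cell receptor related to *Cd6*, was at 0.10 and 0.48 RPKM. The 11 interferon response genes had a median of -0.14 (-0.36), with 1 of 11 above the median gene, and the 7 MHC class I genes 0.17 (-0.06), with 0 past 2-fold. Among 14 genes of the GLP/G9a complex and its readers, the HP1 genes *Cbx3* (1.39 and 3.45 RPKM) and *Cbx5* (2.91 and 6.31 RPKM) were 2-fold higher. Among all genes 10.5% were, and among protein-coding genes 2.25%. The list median was 0.27 (0.05). The levels of *Cbx3* and *Cbx5* in the 384-well WT pool were 2.06 and 3.5 RPKM and in the 96-well WT pool 4.08 and 12.2 RPKM. The 10 H3K9 demethylases had a median of 0.10 (-0.12), 5 germline genes 0.36 (0.14), 3 *Xlr* genes -0.25 (-0.47), 6 neuron markers 0.30 (0.08) and the 4 genes of the transgene and Cre loci 0.47 (0.24).

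The label Neuron was read against markers. The summed level of 6 neuron markers was 196 RPKM in iTg and 266 RPKM in Δ/+ iTg, and markers of other cell types were low beside it. The summed level of 12 microglia markers was 8.65 RPKM in iTg and 11.1 RPKM in Δ/+ iTg, with *P2ry12* at 0.46 and 1.17 RPKM, of 10 oligodendrocyte markers 11.1 and 13.4 RPKM, of 9 astrocyte markers 27.3 and 45.5 RPKM, of 4 precursor markers 1.73 and 1.21 RPKM, and of 6 endothelial markers 0.98 and 1.92 RPKM. Of the measured members, 1 of 4 microglia, 1 of 6 astrocyte and 1 of 2 endothelial markers were 2-fold higher in Δ/+ iTg. Among all genes 10.5% were, and among protein-coding genes 2.25%. Of the 6 oligodendrocyte markers and 1 precursor marker measured, 0 were 2-fold higher. Among defining markers, *Cldn5* of endothelium was listed at 0 in both pools and *Tmem119* of microglia in iTg, as were *C1qb* and *C1qc*. The part of these levels in the ratios above was not tested.

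**Figure D4:**
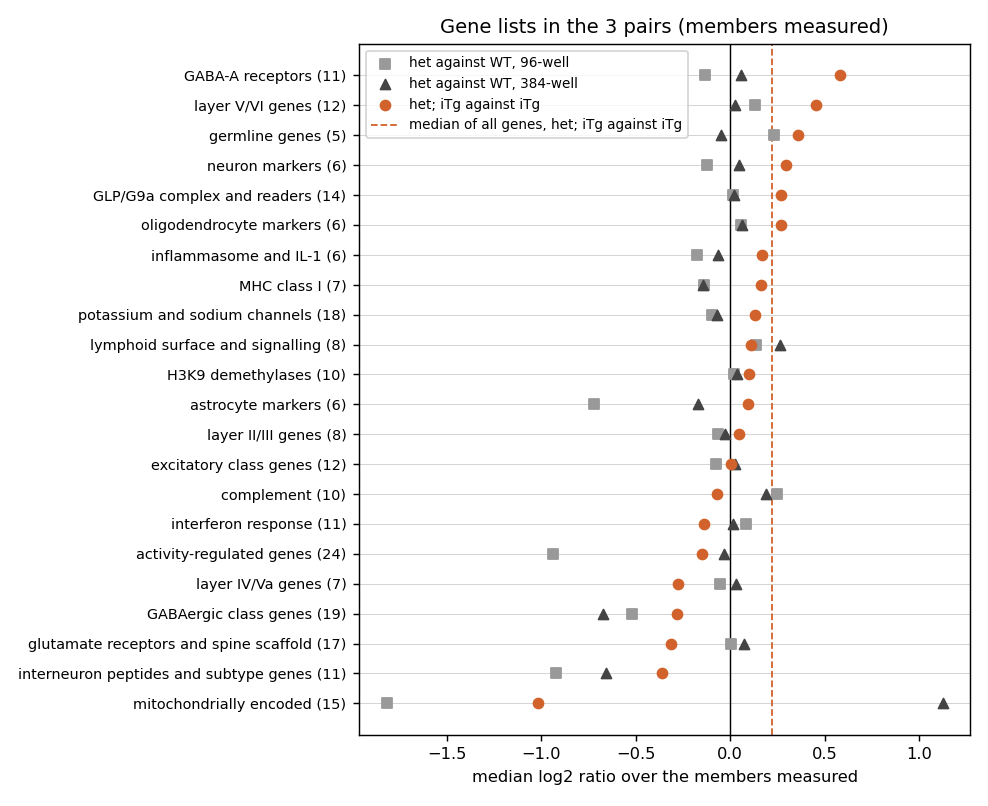
Median log2 ratio of mean RPKM + 0.1 over the measured members of each gene list, with the number of members in parentheses, in neurons of the 96-well pair (squares), the 384-well pair without induced transgene (triangles) and the transgene pair (circles). The dashed line is the median of all genes of the transgene pair, 0.22. The mitochondrial list lies farthest to the left of it and the GABA-A receptors farthest to the right.

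*Casp1*, the protease that activates interleukin-1β, was above 0 in few neurons, so that it was counted by nucleus. It was positive in 7 of 275 iTg neurons (2.55%, exact interval 1.03 to 5.17) and in 12 of 280 Δ/+ iTg neurons (4.29%, 2.23 to 7.37). Without induced transgene it was positive in 15 of 285 WT (5.26%, 2.98 to 8.53) and 33 of 306 Δ/+ neurons (10.8%, 7.54 to 14.8). The intervals of the transgene pair overlap, and at this depth a difference between them was not detectable. Those of WT and Δ/+ overlap in part as well, and a difference between the pairs was not tested. With at least 2 reads the shares were 1.45% in iTg and 2.86% in Δ/+ iTg. Among neurons with more *Slc17a7* than *Gad1* they were 2.27% and 3.91%, beside 5.71% and 12.3% in WT and Δ/+. In oligodendrocytes, whose median depth was 54877 reads in iTg and 54250 in Δ/+ iTg, *Casp1* was positive in 0 of 71 and 0 of 67, which by a limit of 3 counts allows shares of positive nuclei of up to 4.23% and 4.48% at this lower depth (exact upper limits 5.06% and 5.36%). Thinned to 48585 reads, near that depth, 0.744% of iTg and 1.61% of Δ/+ iTg neurons were positive. *Il1b* was positive in 2 and 4 neurons of the transgene pair and *Nlrp3* in 3 and 1.

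**Figure D5:**
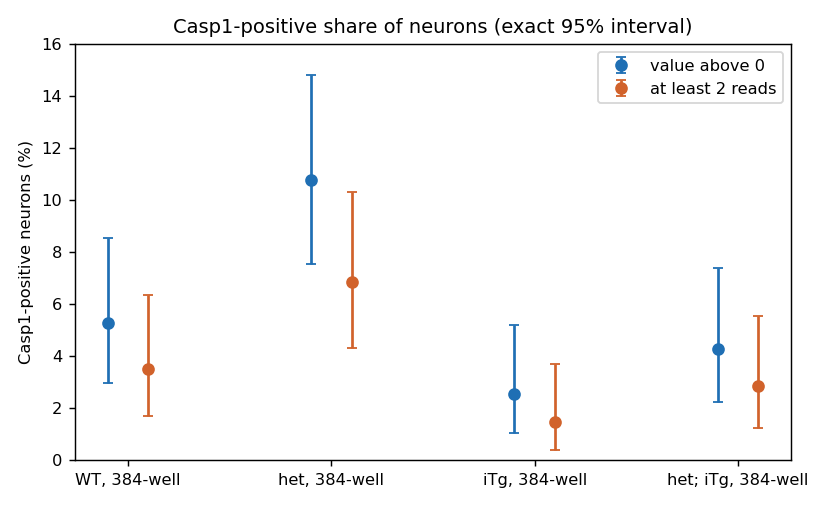
Share of neurons positive for *Casp1* in the 4 pools of the 384-well plates, in percent, with exact 95% intervals for counting error, for values above 0 (blue) and for at least 2 reads (orange). The Δ/+ (het) pool without induced transgene has the highest share, 10.8%, and iTg the lowest, 2.55%.

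Neurons with more *Slc17a7* than *Gad1* made up 80.0% (74.8 to 84.6) of iTg and 82.1% (77.1 to 86.4) of Δ/+ iTg, and 73.7% (68.2 to 78.7) and 82.7% (78.0 to 86.7) of WT and Δ/+ in the 384-well plates. The intervals of iTg and Δ/+ iTg overlap.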

How the data were processed

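Single nuclei of cortex were read by RamDA-seq. Per the study's methods and the submitters' processing notes, adapters were removed by Fastq-mcf, and the authors aligned reads to mm10 by HISAT2 2.0.4, counted them per gene with featureCounts of Subread 1.5.0 and a Gencode annotation, filtered nuclei by RSeQC measures, 384-well nuclei also by their gene-body coverage, and named cell types from UMAP clusters and markers. The authors deposited RPKM values, 1 table per plate format, for 52636 genes. Each of the 2207 columns matched 1 sample by name, and condition and cell type came from its labels. The authors' values were not whole reads for a large share of genes, so no count test was run. Reads per nucleus were recovered from the steps between values, which succeeded in 50 of 50 simulated nuclei. Where genes share reads with close copies or overlap, their levels are uncertain.

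RPKM was averaged over the neurons of a pool, and log2 ratios were taken after adding 0.1. A gene was kept where 10% or more of the neurons of either pool had a value. Neurons were split by the larger of *Slc17a7* and *Gad1*. limma 3.58.1 in R 4.3.3 was fitted to the log2 means of 6 pools with Benjamini-Hochberg adjustment at 0.05, with the plate format and transgene pair as terms (residual degrees of freedom 1 with separate Δ/+ terms, 2 with 1 term), and tested on simulated data. Each pool held 3 mice, so the p-values measure only the spread between these pools. With separate Δ/+ terms, the standard errors and p-values of the transgene pair rest on the spread of the pairs without induced transgene. The transgene pools were assumed to vary like those, which could not be checked. Shares have exact Clopper-Pearson intervals at 95%, which like the limits for a count of 0 cover counting error only. Other steps ran in SciPy 1.17.1, pandas 2.3.3 and numpy 2.4.6 under Python 3.11.15. Coordinates were those of GENCODE M21 on GRCm38 (mm10), which held 49121 of the 52636 identifiers in the same version and 52489 by stable identifier, and are given for the former.

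The members of the comparison, the 27 gene lists and the genes named were chosen with earlier results of these data known. Named were *Ehmt1*, *Ehmt2*, *Casp1*, *Il1b*, *Nlrp3*, *Slc17a7*, *Gad1*, *Rorb* and *Snap25*, 10 genes that earlier results gave as differing with Δ/+, the 10 highest and 10 lowest log2 ratios of the transgene pair, the 10 highest and 10 lowest by the smallest of 3 ratios of the same sign, the 5 highest and 5 lowest genes past 2-fold in both pairs without induced transgene and within 0.5 of 0 in the transgene pair, and list members past 2-fold or else the 2 of highest mean. Predicted genes, pseudogenes and small RNAs were passed over. *Aspg*, *4930447C04Rik*, *C1s2*, *Cck*, *Tac1*, *Kit*, *Vip*, *Crh* and *Tac2* were named after their values were seen. Alternatives were another pseudocount, filter, fold, scaling, neuron class, depth cut and limma option, and leaving out each pair. Those on protein-coding genes only and with the relation to plate format removed were chosen after seeing the data. Results for 3 of the genes that this rule names are not reported here.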

Additional observations from a re-analysis of the deposited data

Results flagged for a closer look

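Only the 102 named genes and the protein-coding genes past 2-fold in both pairs without induced transgene were screened here. Many of them had been chosen by their ratios in these pairs, and the share over all genes was not counted. In 9 of the screened genes both pairs without induced transgene were at least 0.5 apart in log2 one way. The transgene pair went the other way, also relative to the median of all genes. The log2 ratios of Δ/+ iTg to iTg were -0.28 for *C1s1*, -0.74 for *C1ra*, -0.49 for *C1rb*, -0.06 for *Xlr3a*, -0.25 for *Xlr3b*, -0.39 for *Xlr3c* and -0.99 for *Aspg*, which were higher in Δ/+ without induced transgene. They were 0.23 for *Meis1* and 0.48 for *Baiap3*, which were lower there. The difference between the Δ/+ effects with and without induced transgene passed the adjusted p of 0.05 by limma in none of the 9, with adjusted values from 0.112 for *C1s1* to 0.26 for *Xlr3c*. Of these genes, *C1ra* with *C1rb* and the *Xlr3* genes are close copies that can share reads.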

How the results depend on the processing

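The 2564 genes higher and 133 lower in Δ/+ iTg became 1211 and 39 with a pseudocount of 1, 4286 and 819 with no filter, 1481 and 353 with pool means scaled by median ratio, 4153 and 852 in *Gad1* neurons, 316 and 52 among protein-coding genes, 6304 and 815 at 1.5-fold, and 456 and 226 with the relation to plate format removed. The lower genes were 54 with a 25% filter and 210 in deeper nuclei. The scaled values had 80.8% of calls higher in place of 95.1%. The Δ/+ effect of the transgene pair passed limma's threshold in 2117 higher and 114 lower genes with a pseudocount of 1, 2420 and 117 with a 25% filter, and 2962 and 315 with limma's trend, in place of 0. The effect over 3 pairs passed in 1 lower gene after scaling (*Gm40466*), and with 1 pair left out, in 0 to 1 lower and 0 higher genes.

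Of genes chosen as higher in the 96-well pair, those past 2-fold in the transgene pair (11) were 0 with a pseudocount of 1, 162 with no filter, 3 with a 25% filter and 2 among protein-coding genes, and in the 384-well pair (14) 1, 149, 1 and 8, and 9 in *Slc17a7* neurons. Of those chosen as lower, the transgene pair (28) had 9, 108, 15 and 14, and 51 after scaling, and the 384-well pair (31) 3, 128, 10 and 11. Thinned to 48585 reads, *Casp1*-positive shares were 1.62% in WT, 3.9% in Δ/+, 0.744% in iTg and 1.61% in Δ/+ iTg, and with at least 2 reads 6.86% in Δ/+. Among 102 named genes under 10 alternatives, 827 values moved by no more than 0.306 in log2, 187 by more, and 6 that had been past 2-fold lost their direction, namely *Sst* (0.90) and *Npy* (1.08) in *Slc17a7* neurons, and *Ccn2* (-0.23), *Fn1* (1.34), *Tnxb* (1.30) and *Otop2* (0.00) in *Gad1* neurons. Of ratios under 2-fold, 50 values had another sign, among them *C1s1* (0.13) and *Cd6* (-0.19) in *Gad1* neurons, *Zim1* (-0.35) in *Slc17a7* neurons and *Meis1* (-0.13) with the relation to plate format removed. The causes were not tested.

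With 1 pool per genotype and plate format, the genotype, the mice and the handling of a pool cannot be told apart, and the Δ/+ iTg pool is shifted by 0.22 in the median gene. Genes near 0.1 RPKM have ratios that depend on the pseudocount. *Ehmt1* RNA does not check the labels. No paired analysis was possible because each group had 1 pool and the labels number nuclei, not mice.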

Other observations

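*Gm40466*, an unprocessed pseudogene on chromosome 8, had similar ratios in all 3 pairs. Its log2 ratios were -2.60, -3.26 and -2.98 in the transgene, 384-well and 96-well pairs, and it was above 0 in 59.6% of iTg and 27.9% of Δ/+ iTg neurons. In the limma fit over 3 pairs its adjusted p was 0.376, the smallest, and 0.0223 after scaling. As a copy of another gene it may share reads with it, which was not tested.

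*Capn11*, over 2-fold lower in Δ/+ iTg neurons, was at 34.9 RPKM in the 20 microglia of iTg and listed at 0 in the 23 of Δ/+ iTg. Of 1135 protein-coding genes on chromosome 2, which carries *Ehmt1*, 5 were at least 0.5 higher in log2 in Δ/+ in all 3 pairs and 3 were lower. On the other chromosomes, the most genes higher were 4 of 659 on chromosome 3, and the most lower 5 of 1084 on chromosome 7. Next to *Ehmt1*, *Cacna1b* had ratios of -0.15, 0.12 and 0.12 in the transgene, 384-well and 96-well pairs, and *Arrdc1* -0.01, -0.29 and 0.15, beside 0.71, 0.69 and 0.73 for *Ehmt1*.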
